A study of Mus musculus with 10 samples.

Results

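The 10 genes described here keep muscle proteins folded: 7 small heat shock proteins (Hspb1, Hspb2, Hspb3, Hspb6, Hspb7, Hspb8 and Cryab), the myosin chaperones Unc45b and Hsp90aa1, and the co-chaperone Bag3. They were taken by name from the 23417 gene symbols of the deposited mRNA-seq tables (23431 in the USP10 table), and all 10 were found in each of the 4 tables. The RNA came from C2C12, a line of mouse myoblasts that proliferates in serum-rich growth medium and fuses into myotubes in medium with 2% horse serum. The study asked how the ubiquitin ligase Huwe1 and the deubiquitinase USP10 act on muscle differentiation, and 10 libraries were made. At day 0, in growth medium, and after 6 days of differentiation, 1 library of wildtype cells and 2 libraries of Huwe1 knockdown cells were sequenced. After 8 days, 1 library of control myotubes, labelled as carrying non-targeting RNA, and 2 libraries of Huwe1 knockdown myotubes were sequenced. The file header calls this control wild type. Each knockdown pair was made with lentiviruses carrying separate hairpins, and the myotubes of day 8 were infected after differentiation had begun. The library of USP10 overexpression, in a stable line carrying USP10 cDNA under the EF1a promoter, was collected at day 6. Its control bears the name of the wildtype cells of day 6, and no vector line is listed. Making the stable line and USP10 itself therefore cannot be told apart. The labels list no hairpin for the day 0 and day 6 controls, so that infection and loss of Huwe1 cannot be told apart there. Each Huwe1 table gives 1 FPKM value (fragments scaled to transcript length and to library size) for the control and 1 for the pooled knockdown libraries. The USP10 comparison likewise has 1 value a side. No difference below therefore has a replicate check or a p-value.

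Small heat shock proteins share an alpha-crystallin domain and hold unfolding proteins in a soluble state until ATP-driven chaperones of the HSP70 family take over. In striated muscle they sit on the Z-disc, desmin filaments and titin, where stretch unfolds proteins at every contraction. Bag3 is a scaffold that joins Hspb8 to HSP70 and sends damaged filamin to autophagy. Unc45b and Hsp90aa1 work together on another substrate, the myosin motor domain, which cannot fold without them, and the methyltransferase Smyd1 is a partner of both in assembling thick filaments. Mutations in CRYAB, HSPB8 and BAG3 are known causes of human myopathies with protein aggregates.

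The hairpins are shown because the labels list one pair for day 0 and day 6 and another for day 8, whereas the study's methods list the latter pair alone, for myoblasts and myotubes alike. Which hairpins were used at day 0 and day 6 could not be settled. The sequences below are written 5′ to 3′ as the sample labels give them, in capitals throughout.
Day 0 and day 6, knockdown 1: GGGAACCTGTGATTCGAGA
Day 0 and day 6, knockdown 2: GAGAAGAGGACAACTAGTA
Day 8, knockdown 1: GCACTCTTCATAACTCACTTT
Day 8, knockdown 2: GCACTGCTCATCAAAGATGTT
All 4 match annotated Huwe1 transcripts exactly on the forward strand of chromosome X in GRCm38. In the order given, the first lies at chrX:151883185-151883203 in coding sequence, the second spans a splice junction within chrX:151852544-151853408, the third lies at chrX:151934876-151934896 in the 3′ UTR, and the last spans a splice junction within chrX:151862387-151862654. The first, second and last are in coding sequence of some annotated transcripts and in noncoding exons of others, and the spliced ones also fall in the 3′ UTR of some transcripts. Infection time, control and, by the labels, hairpin differ between the day 6 and day 8 comparisons, and their parts in any difference between these days cannot be told apart.

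The promoters of 5 genes are shown, since these genes gave the largest differences at day 6: Hspb3, Hspb7, Hspb8 and Unc45b, which were lower, and Hspb1, which was higher. Each run holds the 250 bases before the transcription start in RefSeq (GRCm38.p6), read along the gene's strand. Capitals mark matches, on either strand, to a pair of heat shock element units (GAANNTTC or TTCNNGAA, bound by heat shock factors), to an E-box (CANNTG, bound by myogenic bHLH factors), to TATAAA and to the MEF2 site, and neighbouring or overlapping matches merge into 1 run of capitals.
Hspb1, chr5:135887669-135887918, plus strand: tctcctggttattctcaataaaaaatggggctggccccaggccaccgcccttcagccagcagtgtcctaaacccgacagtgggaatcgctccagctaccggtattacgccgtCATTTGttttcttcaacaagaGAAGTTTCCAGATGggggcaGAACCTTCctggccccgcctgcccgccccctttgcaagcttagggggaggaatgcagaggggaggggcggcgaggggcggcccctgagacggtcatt
Hspb3, chr13:113663677-113663926, minus strand: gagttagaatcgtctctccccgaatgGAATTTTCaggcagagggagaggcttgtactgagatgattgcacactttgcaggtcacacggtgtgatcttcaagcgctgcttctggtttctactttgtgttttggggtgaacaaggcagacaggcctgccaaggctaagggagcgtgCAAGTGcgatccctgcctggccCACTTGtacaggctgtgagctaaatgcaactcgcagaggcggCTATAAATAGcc
Hspb7, chr4:141420529-141420778, plus strand: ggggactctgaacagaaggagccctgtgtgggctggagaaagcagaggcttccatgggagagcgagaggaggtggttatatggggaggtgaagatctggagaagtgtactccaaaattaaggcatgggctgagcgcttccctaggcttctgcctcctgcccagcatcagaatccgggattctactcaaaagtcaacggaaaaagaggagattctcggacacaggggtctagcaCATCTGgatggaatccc
Hspb8, chr5:116422865-116423114, minus strand: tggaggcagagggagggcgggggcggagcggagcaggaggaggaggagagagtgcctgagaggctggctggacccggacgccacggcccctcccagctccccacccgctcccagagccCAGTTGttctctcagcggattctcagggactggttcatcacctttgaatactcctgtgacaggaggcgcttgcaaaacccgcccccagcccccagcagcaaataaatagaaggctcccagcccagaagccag
Unc45b, chr11:82911003-82911252, plus strand: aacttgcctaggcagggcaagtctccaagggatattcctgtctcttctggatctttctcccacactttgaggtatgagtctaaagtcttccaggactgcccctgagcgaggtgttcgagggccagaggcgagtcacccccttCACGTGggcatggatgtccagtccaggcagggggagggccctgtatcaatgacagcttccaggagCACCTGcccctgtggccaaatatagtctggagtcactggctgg

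In the Hspb1 window GAANNTTC matched at 2 places, from 117 to 110 and from 97 to 90 bases before the start. It also matched once in the window of Hspb3, from 224 to 217 bases before the start, so that the motif was found at a gene that was higher and at one that was lower. Of 32851 windows of this length, 6.69% hold GAANNTTC and 7.17% hold TTCNNGAA. The Hspb3 window holds a MEF2 site from 12 to 3 bases before the start, which overlaps its TATAAA, and 2.92% of all windows hold a MEF2 site. E-boxes were found in all 5 windows, and 66.2% of all windows hold CANNTG. The windows of Hspb7, Hspb8 and Unc45b held neither heat shock pair, TATAAA or MEF2 site, which says only that these letters are not in the stretch shown. Hspb6 and Bag3 windows were found as well, the 7 genes with a window having 8 windows in all, and Hspb2, Cryab and Hsp90aa1 had no entry.

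The control libraries were estimated at 2.22e+07 fragments at day 0, 3.01e+07 at day 6, 1.81e+07 at day 8 and 7.83e+06 in the USP10 table, and the USP10 library at 2.78e+07 fragments. Each estimate is the most frequent library size at which the FPKM of a gene would stand for 1 fragment. Huwe1 had 38.3 FPKM in the day 0 control and 15.2 in the knockdown, 35.1 and 21.9 at day 6, and 55.4 and 33.0 at day 8. Usp10 had 10.3 FPKM in its control and 38.3 in the overexpressing line, and also 13.2 and 35.4 FPKM at day 6 of the Huwe1 knockdown. The 10 markers of the myogenic lineage summed to 441 FPKM in the day 0 control, where Ckm is listed at 0, and to 12569 FPKM in the day 6 control, where all 10 were above 1 FPKM. Both day 6 tables give their control the same name, but the values differ by gene: after centring on the median gene, their log2 ratios had a robust SD of 0.63 over 11459 genes. Whether both columns come from the same RNA could not be settled, and this SD is the sole measure here of how far control columns differ.

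**Figure D1:**
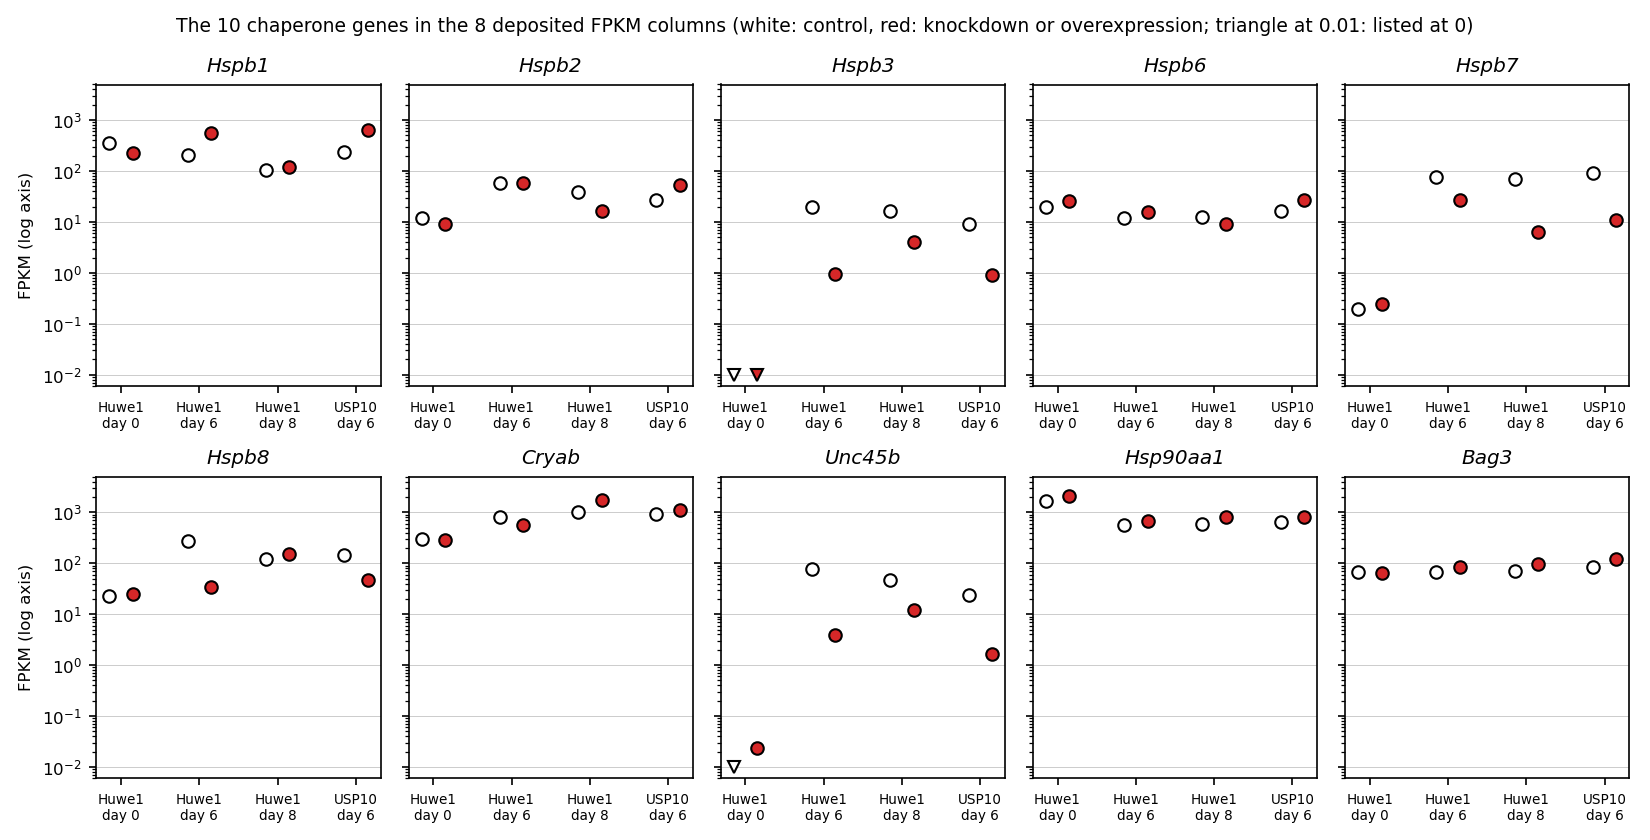
FPKM on a log axis of each of the 10 chaperone genes in the 8 deposited columns, with white points for controls, red points for Huwe1 knockdown or USP10 overexpression, and triangles at 0.01 for values listed at 0. Hspb3, Hspb7 and Unc45b had under 1 FPKM at day 0 and were lower in the red than in the white column at each later stage, while Bag3 stayed between 63.4 and 120 FPKM.

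In the controls, these genes fell into 3 kinds along differentiation. Levels across days are set side by side as descriptions, because the tables were normalized separately. Hspb3, Hspb7 and Unc45b were nearly absent from myoblasts. Hspb3, a small heat shock protein of muscle that forms a complex with Hspb2, is listed at 0 FPKM in the day 0 control and had 20.0 FPKM at day 6 and 16.4 at day 8. Hspb7, which binds filamin at the Z-disc, had 0.196, 75.7 and 70.9 FPKM at these stages. Unc45b is listed at 0 FPKM at day 0 and had 78.2 FPKM at day 6 and 46.4 at day 8. At the depth of the day 0 control, 3 fragments would be worth about 0.173 FPKM of Hspb3 and 0.0381 FPKM of Unc45b, so a count of 0 allows levels up to these, counting error only.

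Hspb2, Hspb8 and Cryab were present in myoblasts and higher in differentiated cells. Hspb8, the partner of Bag3, had 23.1 FPKM in the day 0 control, 277 at day 6 and 120 at day 8, so that the day 6 value was 12.0-fold and the day 8 value 5.18-fold higher than at day 0. Hspb2, which binds the myotonic dystrophy kinase, had 12.0, 59.4 and 38.2 FPKM. Cryab, alpha-B crystallin, which protects desmin filaments, had 306, 819 and 1001 FPKM. Hspb1, Hspb6, Hsp90aa1 and Bag3 were not higher in differentiated controls. Hspb1, the actin-binding small heat shock protein known as Hsp25 in mice, had 351 FPKM at day 0, 203 at day 6 and 107 at day 8. Hsp90aa1, the inducible cytosolic HSP90, had 1634 FPKM at day 0 and 554 and 603 FPKM later, so that it was 2.95-fold lower at day 6 than at day 0. Bag3 had 68.6, 68.0 and 70.0 FPKM, the smallest spread of the 10 genes over these controls, and Hspb6, a target of cyclic nucleotide-dependent kinases, had 20.1, 11.8 and 12.4 FPKM. Leaving out Hspb3 and Unc45b, which have no fold against 0, 4 of the genes were 2-fold or more higher in the day 6 than in the day 0 control and 1 was lower, where 21.5% of all genes were higher and 23.2% lower (44.8% together). In the day 8 against the day 0 control it was 4 higher and 2 lower, where 20.0% of all genes were higher and 15.7% lower (35.7% together). Both all-gene shares keep genes listed at 0 in 1 column, with 0.01 FPKM added to each value. By that rule Hspb3 and Unc45b were higher as well. From day 6 to day 8, Hspb8 alone passed 2-fold, being lower, where 13.8% of all genes were higher and 5.81% lower (19.6% together).

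The second day 6 control, in the USP10 table, gave nearly the same levels for some of these genes and not for others. Hspb1 (242 FPKM), Hspb6 (16.2), Hspb7 (90.7), Cryab (945), Hsp90aa1 (648) and Bag3 (84.6) differed from the control of the Huwe1 table by 1.15-fold to 1.37-fold. Unc45b had 23.4 FPKM, 3.34-fold lower than in the other control, Hspb2 26.8 FPKM (2.22-fold lower), Hspb3 9.12 FPKM (2.19-fold lower) and Hspb8 143 FPKM (1.93-fold lower). Thus 3 of the 10 genes differed 2-fold between these controls, all 3 lower in the USP10 table, where 19.9% of all genes differed (8.66% lower and 11.2% higher).

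In proliferating myoblasts at day 0, no chaperone gene differed 2-fold between Huwe1 knockdown and control. Counting the 10874 genes that reached 1 FPKM on either side, 1.69% lay 2-fold or more below the control and 1.90% above it (3.60% together). Of the 10 genes, 7 reached 1 FPKM, with a median log2 ratio of knockdown to control of -0.10 (0.01 FPKM added to each value), beside 0.00228 for all genes. Hspb1 was the most different, with 351 FPKM in control cells and 223 under knockdown (log2 ratio -0.66), a value lower than that of all but 4.24% of genes. Hsp90aa1 had 1634 and 2102 FPKM (log2 ratio 0.36) and Hspb6 20.1 and 25.9 FPKM (0.37). Bag3, Cryab and Hspb8 lay between -0.11 and 0.08. Hspb3 is listed at 0 in both columns, Hspb7 had 0.196 and 0.241 FPKM, and Unc45b is listed at 0 in the control and had 0.0232 FPKM in the knockdown.

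At day 6 of differentiation, 4 of the 10 genes were at least 2-fold lower in Huwe1 knockdown cells than in the control and 1 was higher. Among 11695 genes counted, 13.4% were lower and 17.6% higher by this limit (31.1% together). The lower genes were those most restricted to differentiated muscle together with Hspb8. Hspb3 had 20.0 FPKM in control cells and 0.953 under knockdown (log2 ratio -4.38, 20.8-fold lower). Unc45b had 78.2 and 3.87 FPKM (log2 ratio -4.33, 20.2-fold lower). These ratios were lower than those of all but 1.57% and 1.61% of genes. Hspb8 had 277 FPKM in control cells and 34.6 under knockdown (log2 ratio -3.00, 8.00-fold lower), and Hspb7 had 75.7 and 26.5 FPKM (log2 ratio -1.51, 2.85-fold lower). All 4 differences were larger than the difference of that gene between the 2 day 6 controls. Taken against the control of the USP10 table, with both columns centred on the median gene, the log2 ratios were -3.30 for Hspb3, -2.65 for Unc45b, -2.11 for Hspb8 and -1.83 for Hspb7, all past 2-fold.

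Hspb1 differed in the other direction at day 6, with 203 FPKM in control cells and 555 under knockdown (log2 ratio 1.45, 2.73-fold higher), while the controls of that day differed by 1.19-fold. The remaining 5 genes stayed within 2-fold. Cryab had 819 and 571 FPKM (log2 ratio -0.52), Hspb2 59.4 and 58.9 FPKM (-0.01), Bag3 68.0 and 83.6 FPKM (0.30), Hsp90aa1 554 and 676 FPKM (0.29) and Hspb6 11.8 and 15.8 FPKM (0.42). Each of these lay inside the robust SD of 0.63 between control columns. The median log2 ratio of the 10 genes was -0.27, beside -0.00646 for all genes. For Hspb2 the choice of control matters, since against the control of the USP10 table its centred log2 ratio was 1.08.

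Even where they were lower, the muscle chaperones of the day 6 knockdown were above their level in knockdown myoblasts of day 0. Hspb7 had 0.241 FPKM in the knockdown at day 0 and 26.5 at day 6, Unc45b 0.0232 and 3.87 FPKM, and Hspb3, listed at 0 at day 0, had 0.953 FPKM at day 6. Hspb8 had 24.5 and 34.6 FPKM, a 1.41-fold difference where the controls of these days differed 12.0-fold. Hspb2 was 6.49-fold higher at day 6 than at day 0 in the knockdown columns and 4.96-fold higher in the control columns. In all, 4 of the 10 genes were 2-fold or more higher in the day 6 than in the day 0 knockdown (Hspb1, Hspb2, Hspb7 and Unc45b) and Hsp90aa1 was lower, where 19.1% of all genes were higher and 16.9% lower (35.9% together).

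**Figure D2:**
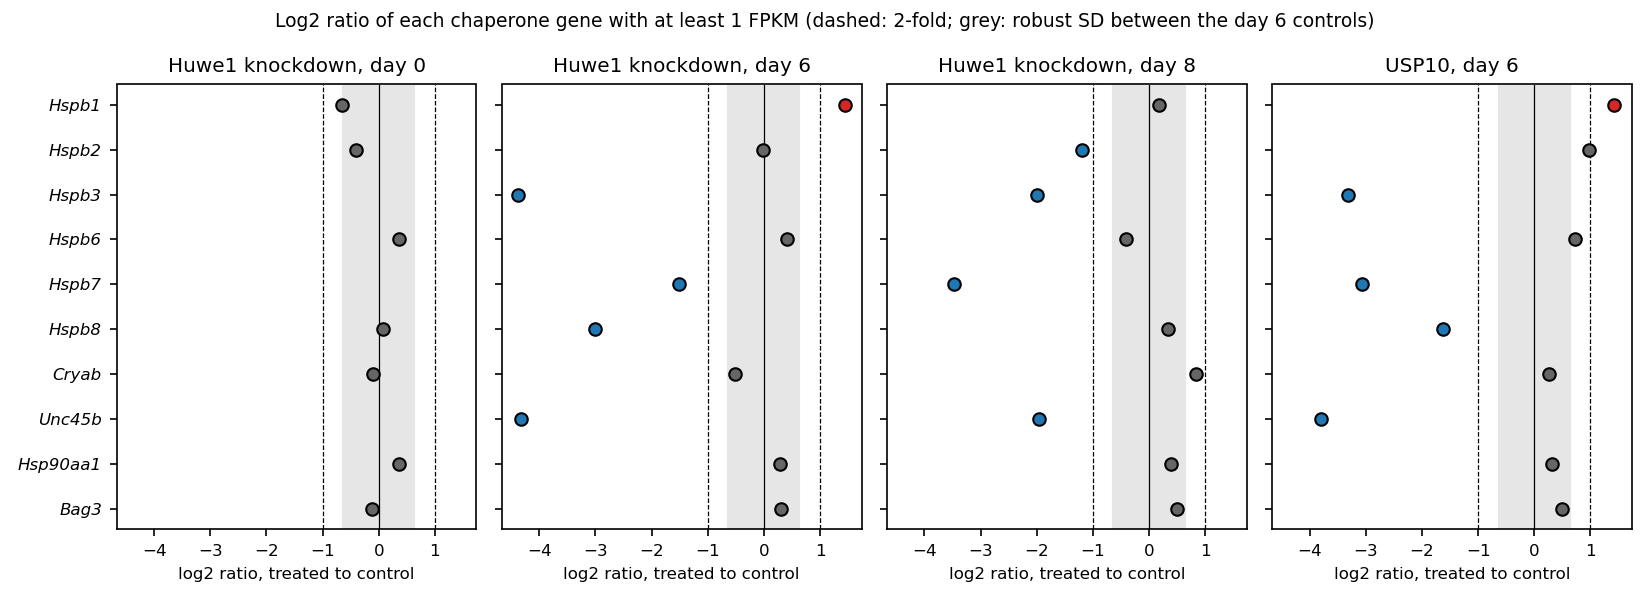
Log2 ratio of treated to control FPKM for each of the 10 chaperone genes that reached 1 FPKM on either side, in the 4 comparisons, with dashed lines at 2-fold and a grey band of 1 robust SD (0.63) between the day 6 controls. Hspb3, Hspb7 and Unc45b lay left of the 2-fold line in all 3 comparisons after day 0, while Hspb8 was lower in both day 6 comparisons and at 0.33 at day 8.

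In day 8 myotubes, 4 of the 10 genes were at least 2-fold lower in the knockdown and 0 were higher, beside 10.0% of 11755 genes lower and 7.89% higher (17.9% together). Hspb7 had 70.9 FPKM in control cells and 6.37 under knockdown (log2 ratio -3.47, 11.1-fold lower), lower than all but 1.09% of genes. Hspb3 had 16.4 and 4.09 FPKM (log2 ratio -2.00), and Unc45b had 46.4 and 11.9 FPKM (log2 ratio -1.96). The 4th gene was Hspb2, with 38.2 and 16.7 FPKM (log2 ratio -1.19, 2.28-fold lower). Its difference is close to the 2.22-fold by which the 2 day 6 controls differ in Hspb2. Cryab, transcribed away from Hspb2 from a start 403 bases off on chromosome 9, had 1001 FPKM in control cells and 1778 under knockdown (log2 ratio 0.83). Hspb2 was thus 3.81% of the level of Cryab in control myotubes and 0.942% in knockdown myotubes. Hspb8, which was 8.00-fold lower at day 6, had 120 and 151 FPKM (log2 ratio 0.33). Bag3 (70.0 and 98.8 FPKM), Hsp90aa1 (603 and 794 FPKM), Hspb1 (107 and 122 FPKM) and Hspb6 (12.4 and 9.27 FPKM) stayed within 2-fold, and the median log2 ratio of the 10 genes was -0.12, beside 0.000873 for all genes.

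With USP10 overexpression at day 6, the genes at least 2-fold lower were again Hspb3, Hspb7, Hspb8 and Unc45b, and Hspb1 was at least 2-fold higher, beside 10.0% of 11482 genes lower and 9.70% higher (19.7% together). Unc45b had 23.4 FPKM in control cells and 1.67 in the USP10 line (log2 ratio -3.80, 13.9-fold lower). Hspb3 had 9.12 and 0.912 FPKM (log2 ratio -3.31). The latter rests on about 19.8 fragments, and its 95% Poisson interval runs from 0.556 to 1.41 FPKM, counting error only. Hspb7 had 90.7 and 10.9 FPKM (log2 ratio -3.06, 8.35-fold lower) and Hspb8 143 and 46.7 FPKM (log2 ratio -1.62, 3.07-fold lower). Hspb1 had 242 FPKM in control cells and 649 in the USP10 line (log2 ratio 1.43, 2.69-fold higher). Hspb2, with 26.8 and 52.4 FPKM (log2 ratio 0.97), lay just inside the 2-fold limit. Hspb6 (16.2 and 26.8 FPKM), Bag3 (84.6 and 120 FPKM), Hsp90aa1 (648 and 807 FPKM) and Cryab (945 and 1135 FPKM) were each higher by less than 2-fold, and the median log2 ratio of the 10 genes was 0.29, beside 0.05 for all genes. Against the day 6 control of the Huwe1 table, centred in the same way, the log2 ratios were -5.53 for Unc45b, -4.43 for Hspb3, -2.56 for Hspb8, 1.19 for Hspb6 and -0.17 for Hspb2. These values have their own control column. They were set beside the Huwe1 day 6 values gene by gene, and the difference between the 2 treatments was not tested.

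The smaller Hspb7 ratio at day 6 of Huwe1 knockdown (-1.51) than at day 8 (-3.47) goes with a knockdown level of 26.5 FPKM at day 6 and 6.37 FPKM at day 8, since the controls were at 75.7 and 70.9 FPKM. For Hspb8 both sides differed: the control was 2.31-fold lower at day 8 than at day 6, and the knockdown had 34.6 FPKM at day 6 and 151 FPKM at day 8. Hspb1 had 555 FPKM in the knockdown at day 6 and 122 FPKM at day 8, against 203 and 107 FPKM in the controls.

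**Figure D3:**
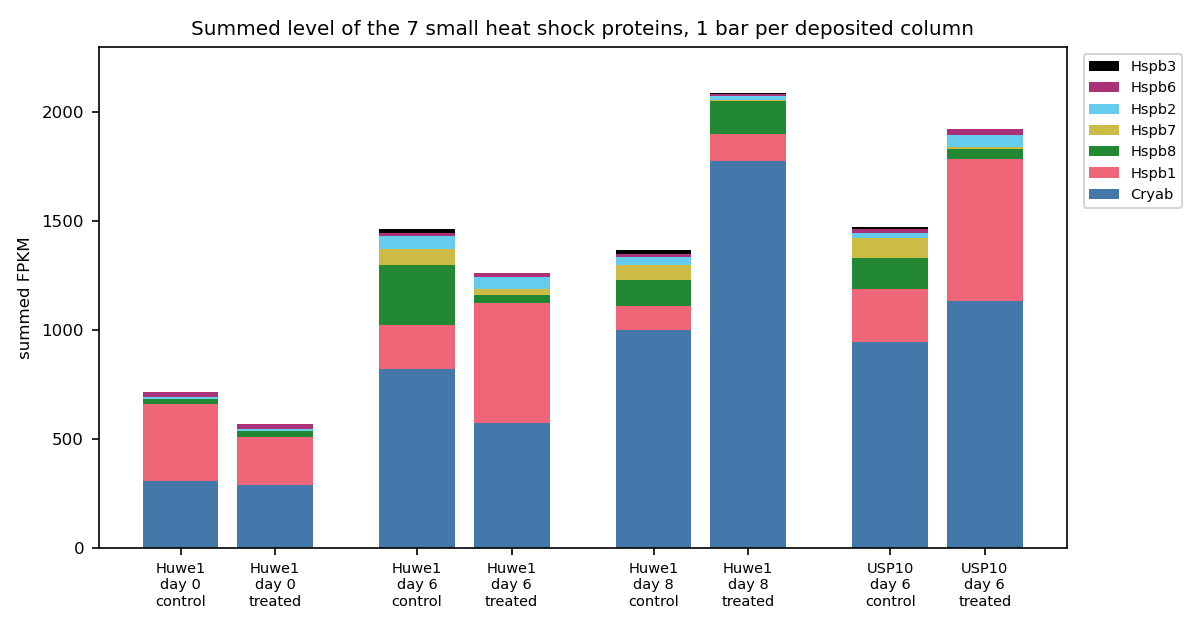
Summed FPKM of the 7 small heat shock proteins in the 8 deposited columns, each bar stacked by gene and starting at 0. Cryab and Hspb1 made up between 69.7% and 92.8% of each bar, with the lowest share in the day 6 control of the Huwe1 table, where Hspb8 was 18.9%.

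Summed over the 7 small heat shock proteins, the level was 713 FPKM in the day 0 control and 569 in its knockdown, 1465 and 1262 at day 6, 1366 and 2087 at day 8, and 1472 and 1922 in the USP10 table. Its make-up differed between treated and control columns at day 6. At that day, Hspb1 was 13.9% of the sum in the control of the Huwe1 table and 43.9% in the knockdown, and 16.4% and 33.8% in the USP10 table. Hspb8 was 18.9% and 2.74% in the Huwe1 table, and 9.73% and 2.43% in the USP10 table. The Hspb8 level was 4.07 times that of Bag3 in the day 6 control and 0.414 times in the Huwe1 knockdown, 1.69 and 0.390 times in the USP10 table, and 0.337 and 0.387 times at day 0. At day 8 it was 1.71 and 1.53 times, and Cryab made up 73.3% of the sum in control and 85.2% in knockdown myotubes. Cryab had the highest level of the 7 genes in every column but the day 0 control, where Hspb1 was higher, and the lowest was Hspb6 in 2 control columns (Huwe1 table of day 6, and day 8) and Hspb3 in the other 6 columns.

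Among the partners of the myosin chaperones, the muscle gene Smyd1 was lower wherever Unc45b was, and the general paralog Unc45a stayed within 2-fold. Smyd1 had 52.9 FPKM in the day 6 control and 4.03 in the Huwe1 knockdown (log2 ratio -3.71), 43.5 and 9.85 FPKM at day 8 (-2.14), and 24.7 and 2.84 FPKM in the USP10 table (-3.11). Unc45a had 7.61 and 8.16 FPKM at day 6, 12.3 and 16.2 at day 8, and 5.81 and 7.36 in the USP10 table. Hsp90ab1, the constitutive HSP90 and a near copy of Hsp90aa1 whose reads may be shared with it, had 2138 and 1658 FPKM at day 6 of the knockdown (log2 ratio -0.37). Hsp90aa1 was 0.587 times the level of Hsp90ab1 in the day 0 control, 0.259 times at day 6 and 0.214 times at day 8. Over the 16 listed HSP90 paralogs and co-chaperones, 2 were at least 2-fold lower at day 6 (Smyd1 and the mitochondrial Trap1). It was 2 at day 8 (Smyd1 and the immunophilin Fkbp5) and 1 in the USP10 table (Smyd1), and 0 were higher. Over all genes, 13.4% were lower and 17.6% higher at day 6, and 10.0% and 7.89% at day 8. With USP10, 10.0% were lower and 9.70% higher. The lower counts of this list lie near these shares, and the counts of the lists below are to be read beside them.

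The listed thick filament genes, which are myosin heavy chain, myosin-binding protein C and myomesin genes, were lower as well. At day 6, 11 of 11 were at least 2-fold lower in the Huwe1 knockdown (median log2 ratio -3.78) and 11 of 11 in the USP10 table (-5.69), and at day 8 it was 9 of 11 (-1.73). Reads of the sarcomeric myosin heavy chain genes may be shared among near copies. Of the clients of small heat shock proteins in filaments and the Z-disc, 10 of 12 were at least 2-fold lower at day 6 (median -2.71), 9 of 12 at day 8 (-1.77) and 9 of 11 with USP10 (-2.05). At day 6, 1 gene of this list was higher, the intermediate filament gene Vim (294 and 1768 FPKM, log2 ratio 2.59), and 0 were higher at day 8 or with USP10. Flnc, filamin C, had 339 and 87.9 FPKM at day 6 (log2 ratio -1.95), 218 and 362 at day 8 (0.73), and 253 and 102 in the USP10 table (-1.31). Flnc and Hspb8 were thus both lower in the 2 day 6 comparisons, and neither differed 2-fold at day 8. Des, desmin, the filament that Cryab protects, had 1769 and 1083 FPKM at day 6 and 1510 and 604 FPKM at day 8 (log2 ratio -1.32).

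Among the ATP-driven chaperones and their co-chaperones, J-domain proteins, which hand clients to HSP70, had the most members lower at day 6. At least 2-fold lower were 7 of 16 in the Huwe1 knockdown and 3 of 16 with USP10, with 0 higher in either. Of all genes, 13.4% were lower in the Huwe1 knockdown of day 6 and 10.0% with USP10. Dnaja2 had 537 and 109 FPKM in the Huwe1 table (log2 ratio -2.30) and 380 and 115 FPKM in the USP10 table (-1.72). At day 8, 1 of 16 was lower, and Dnajb1 (30.0 and 63.5 FPKM) and Dnaja4 (31.1 and 63.5 FPKM) were at least 2-fold higher. Hsph1, an HSP70 nucleotide exchange factor, had 132 and 51.3 FPKM at day 6 (log2 ratio -1.36) and 85.1 and 212 FPKM at day 8 (1.32). Of the HSP70 and HSP110 list, 4 of 14 were lower and 1 higher at day 6, 2 of 13 lower and 2 higher at day 8, and 1 of 13 lower and 1 higher with USP10. Hspa8, the constitutive HSP70 that Bag3 binds, stayed within 2-fold in all 4 comparisons, with log2 ratios from -0.45 to 0.45.

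**Figure D4:**
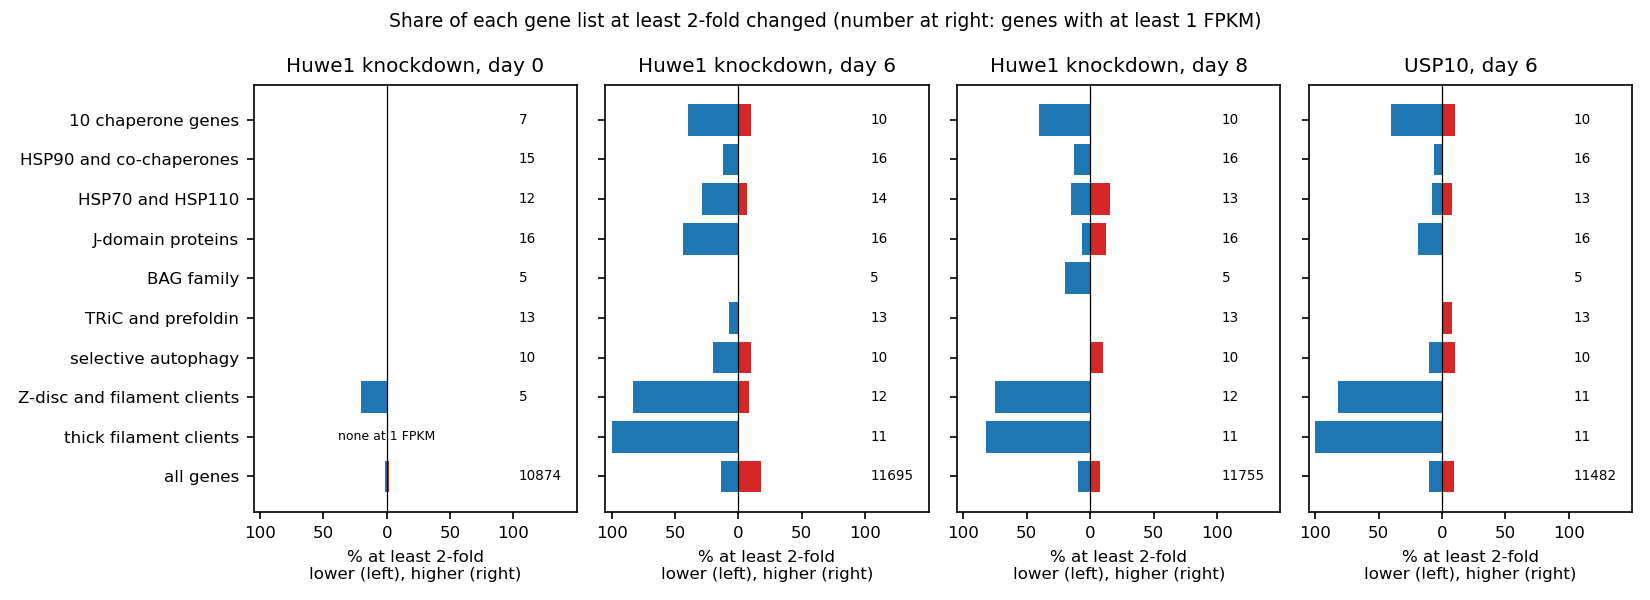
Share of each gene list at least 2-fold lower (left, blue) and higher (right, red) in the 4 comparisons, over the genes of the list that reached 1 FPKM on either side, whose number stands at the right, with all genes in the bottom row. After day 0, 4 of the 10 chaperone genes were lower in each comparison, a smaller share than in the thick filament list (11, 9 and 11 of 11) and a larger one than in all genes (13.4%, 10.0% and 10.0%).

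In each of the other lists, 0 to 2 genes were at least 2-fold lower and 0 or 1 higher in a comparison. Among genes of the 9 further chaperone lists that reached 1 FPKM on either side at day 0, 0 were at least 2-fold different. Of 13 chaperonin and prefoldin genes, which fold actin and tubulin, 1 was lower at day 6 (Cct8), 0 at day 8, where all 13 had log2 ratios below 0 (median -0.56), and 0 with USP10, where Pfdn4 was higher. None of the 5 other BAG genes differed 2-fold at day 6 in either table, and Bag1 was 2-fold lower at day 8 (439 and 208 FPKM). Hsf1, the heat shock factor, stayed within 2-fold in all 4 comparisons, with log2 ratios from -0.14 to 0.49. In the list for selective autophagy, Synpo2, the muscle partner of Bag3, had 117 and 16.6 FPKM at day 6 (log2 ratio -2.82), 103 and 54.9 at day 8 (-0.90), and 58.7 and 7.51 with USP10 (-2.97). Sqstm1, the autophagy receptor p62, had 400 and 600 FPKM at day 6, 426 and 896 FPKM at day 8 (log2 ratio 1.07) and 561 and 1102 FPKM with USP10 (0.98). The ubiquitin ligase Stub1, which works with HSP70 and Bag3, had log2 ratios from 0.04 to 0.63. Of the 4 other genes listed with the small heat shock proteins by name, Hspb11 alone reached 1 FPKM, within 2-fold in all 4 comparisons. The 3 listed mitochondrial chaperone genes and 3 expressed heat shock factors each had at most 1 gene past 2-fold in a comparison.

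After day 0, markers of differentiation and of other cell states differed alongside these genes. At day 0 some markers differed 2-fold although no chaperone gene did. The summed level of the 10 myogenic lineage markers there was 441 FPKM in control myoblasts and 230 with Huwe1 knocked down. Of the 6 that reached 1 FPKM, Myod1 was at least 2-fold lower (21.7 and 9.30 FPKM) and 0 were higher. The 8 mesenchymal and reserve cell markers summed to 181 and 166 FPKM, with Dcn (1.27 and 4.42 FPKM) at least 2-fold higher. The 10 myogenic lineage markers summed to 12569 FPKM in the day 6 control and 2827 in the Huwe1 knockdown, to 9783 and 2833 at day 8, and to 5529 and 3251 in the USP10 table. At least 2-fold lower were 7 of 10 at day 6, 7 of 10 at day 8 and 5 of 10 with USP10, with 1 of 10 higher in each day 6 table. The 8 mesenchymal and reserve cell markers summed to 25.3 FPKM in the day 6 control and 3834 in the Huwe1 knockdown, and to 179 and 3660 in the USP10 table. At least 2-fold higher were 6 of these markers with the Huwe1 knockdown of day 6 and 4 with USP10, and 1 was lower in each. The lower one in the Huwe1 knockdown of day 6 was Pax7 (7.54 FPKM in the control and 0.0438 under knockdown, log2 ratio -7.13). Dcn gave most of both sums, and Thy1 is listed at 0 in both of those treated columns. At day 8 they summed to 121 and 129 FPKM, with Dcn (4.19 and 8.75 FPKM) and Pdgfra (1.95 and 7.74 FPKM) at least 2-fold higher and Ly6a (13.9 and 4.28 FPKM) lower. In bulk RNA, fewer cells of a type and less RNA per cell cannot be told apart, and the part of these markers in the chaperone values was not tested. The 15 housekeeping genes had a median log2 ratio of 0.20 at day 6, -0.36 at day 8 and 0.26 with USP10, and 0 of them were 2-fold lower in any comparison, while 3 were higher at day 6 and 2 with USP10.

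Over the 8 columns, the pattern of each gene was compared with that of 8371 genes that had at least 10 FPKM in at least 1 column, as the root mean square difference of log2 levels centred on each gene's own mean. The columns share a cell line and the day 6 controls share a name, so this is a description. Nearest to Hspb3 were Filip1 (0.31) and Myog (0.40), to Unc45b Hrc (0.37) and Hfe2 (0.47), and to Hspb7 Txlnb (0.53) and Casq2 (0.57). Hspb8 was nearest to Mmaa (0.20) and Elmod2 (0.29), Cryab to Golgb1 (0.23) and Asb5 (0.30), Hspb2 to Tmbim1 (0.27) and Tgm2 (0.33), and Hspb1 to Plekhb2 and Evi2a (both 0.29). Bag3 (Copa at 0.09 and Ccdc167 at 0.11) and Hsp90aa1 (Siva1 and Mtmr4, both 0.16) had nearer neighbours and smaller ranges. Among the 45 pairs of the 10 genes, the differences ran from 0.52 (Hsp90aa1 and Hspb6) to 5.12 with a median of 1.84, and Hspb3 and Unc45b were 0.62 apart.

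The genes lie apart in the genome except for Hspb2 and Cryab. In coordinates of mm10, Hspb2 is listed on chromosome 9 from 50751072 to 50752354 on the minus strand and Cryab from 50752758 to 50756633 on the plus strand. GENCODE has longer Cryab transcripts that begin at 50751325, inside Hspb2, and the strand setting of the counting is not given in the sources used here, so reads of these transcripts and of Hspb2 may not have been separated. Unc45b is on chromosome 11, where the tables give it the same locus, from 82911253 to 82964850, as 1700003F17Rik and Slfn5. The 1700003F17Rik value moved with it, from 36.4 FPKM in the day 6 control to 1.69 in the knockdown, and reads could be shared between them, while Slfn5 had 0.658 and 0.919 FPKM. Hspb6, on chromosome 7 from 30553302 to 30555439, is listed 1 base from Lin37 on the other strand. Apart from Unc45b, the listed locus of each gene overlaps no other listed locus.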

How the data were processed

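Per the paper's methods and the labels, the authors selected poly(A) RNA, made directional ScriptSeq v2 libraries, mapped the Illumina reads with Tophat and ran Cuffdiff. The submitters' processing notes name mm10, Bowtie2 and Cuffdiff. Versions, annotation and the strand setting are not given in the sources used here. The deposited values are FPKM, 1 per condition, with the 2 knockdown libraries pooled by the authors and each of the 4 tables normalized separately. The authors' fold changes, test scores, p-values and q-values in these tables were not used.

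All 8 FPKM columns were read. Log2 ratios had 0.01 FPKM added to each value, over genes that reached 1 FPKM on either side, and 2-fold differences were counted, so ratios of low genes are understated. The 10 genes and 14 gene lists were chosen with earlier results of these data known. From each list up to 3 genes per comparison were eligible by size (2-fold, at least 10 FPKM in 1 column and 1 FPKM in both), with known partners added, and the 2 nearest patterns per gene (those of Hspb6 are not reported here). Depth was estimated on single transcripts of at least 1500 bases (GENCODE M21), without correction for fragment length, so fragment numbers and limits are approximate and cover counting error only. Of the gene symbols, 93.5% were found in GENCODE. On simulated data with counting noise only and changes set well past the 2-fold limit, 200 of 200 changed genes of 10819 were recovered and 0 unchanged genes counted. That outcome follows from the setting and checks the code alone. How often the 2-fold count is wrong in the deposited columns was not tested. Between the 2 day 6 control columns, 19.9% of all genes differed 2-fold. Calculations ran in Python 3.11.15 with numpy 2.4.6, pandas 2.3.3 and scipy 1.17.1, and plots in matplotlib 3.10.9. Alternatives tried were pseudocounts of 0.1 and 1 FPKM, no minimum, a minimum of 5 FPKM or of 1 FPKM on both sides, centring, and the other day 6 control.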

Additional observations from a re-analysis of the deposited data

Results flagged for a closer look

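Hspb8 and Hspb1 had log2 ratios of opposite sign at different stages of Huwe1 knockdown, past 2-fold in at least 1 stage. The differences were not tested, and each rests on 1 pooled knockdown value and 1 control value per stage. The log2 ratio of Hspb8 was 0.08 at day 0, -3.00 at day 6 and 0.33 at day 8, so that it differed by -3.09 from day 0 to day 6 and by 3.33 from day 6 to day 8. The log2 ratio of Hspb1 was -0.66 at day 0 and 1.45 at day 6, a difference of 2.11.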

How the results depend on the processing

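Without a minimum FPKM, 1 chaperone gene was at least 2-fold higher at day 0 (Unc45b, listed at 0 in the control) in place of 0. With the control of the other day 6 table, centred, 2 genes were at least 2-fold higher in the Huwe1 knockdown at day 6 (Hspb1 and Hspb2) and 2 with USP10 (Hspb1 and Hspb6), in place of 1 each, and the 4 lower genes stayed at 4 in both. Restricted to the 7 genes with at least 1 FPKM in the day 0 control, an alternative chosen after seeing the data, 1 gene was lower at day 6 (Hspb8), 1 at day 8 (Hspb2) and 1 with USP10 (Hspb8), by construction without Hspb3, Hspb7 and Unc45b. The median of the genes depended on which were counted: restricted to those 7 genes it was 0.29 at day 6, 0.33 at day 8 and 0.50 with USP10, in place of -0.27, -0.12 and 0.29. Without a minimum it was 0.04 at day 0 in place of -0.10, and with 1 FPKM required on both sides -0.01 at day 6, where Hspb3 dropped out and 3 of 9 genes were lower, as with USP10. The other counts kept their values, and no ratio past 2-fold changed sign. With 1 FPKM added, Hspb3 had log2 ratios of -3.43 at day 6 and -2.40 with USP10. Single libraries could not be left out, as the tables hold no replicate values. No paired analysis was possible because the knockdown replicates are pooled into 1 column. Depth limits Hspb3 and Unc45b at day 0, and the pooled columns gave no depth.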
